A study of Homo sapiens with 12 samples.

Results

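Splicing factors of the SR, SF3, U2AF, hnRNP, PTBP, CELF, ESRP and RBM families were followed in 2 human testicular germ cell tumour lines exposed to I-BRD9. Members were chosen by symbol and a minimum total count, not by their changes. The families were set with earlier results of these data known. Of the 63241 genes of the count table, 216 matched the family symbols, 123 of these were symbols of pseudogenes and were left out, and 3 more (RBM44, HNRNPCL2 and HNRNPCL3) had fewer than 10 counts over the 12 libraries. The 90 members that remained were 12 SR proteins, 9 SF3 subunits, 2 U2AF subunits, 24 hnRNP genes, 3 PTBP genes, 6 CELF genes, 2 ESRP genes and 32 RBM genes. ESRP1 and ESRP2 were kept, although a literal reading of the pseudogene rule would drop them and leave 88. Enough counts for a test were present in 85 members, and HNRNPCL1, HNRNPCL4, HNRNPA1L2, CELF3 and CELF6 were not tested.

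The 12 libraries fell into 4 groups of 3. TCam-2, a seminoma line kept in RPMI, received 15 µM I-BRD9 or the solvent DMSO, and 2102 EP, an embryonal carcinoma line kept in DMEM, received the same agents. Every group was taken at 24 hours and is given as wild type, and no BRD9 mutant is among them. I-BRD9 is an inhibitor of the bromodomain of BRD9, a subunit of a SWI/SNF chromatin remodelling complex, so the design asks how transcript levels respond to the compound in each line. Each line is a single tumour-derived line, and the lines also differ in their medium, so line and medium cannot be told apart.

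SR proteins bind enhancer sequences in exons and recruit the splicing machinery, whereas many hnRNP proteins coat nascent transcripts and oppose exon inclusion, so that the balance between both helps to set which exons are kept. U2AF recognises the end of the intron and hands over to the U2 particle, whose SF3a and SF3b subcomplexes clamp the branch point. PTBP, CELF, ESRP and many RBM proteins act on smaller sets of exons, often in a tissue-dependent way, and several SR and hnRNP genes limit their own output through alternative splicing of their transcripts.

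Levels are given in CPM, estimated counts scaled to a common library size and adjusted for library composition. The counts come from 3′ ends and do not grow with transcript length, so CPM values of different genes may be set side by side. In bulk libraries of this kind, fewer cells of a type and less RNA per cell cannot be told apart. Depth ran from 7290335 to 10053366 counts per library. Summed embryonal carcinoma markers (SOX2, GDF3, DNMT3B and LEFTY2) reached 57.8 to 68.8 CPM in TCam-2 with I-BRD9, 105 to 111 CPM in TCam-2 with DMSO, 416 to 468.5 CPM in 2102 EP with I-BRD9 and 1582 to 1699 CPM in 2102 EP with DMSO. Summed seminoma markers (SOX17, PRAME, TFAP2C and PRDM1) reached 1091 to 1259 CPM in TCam-2 with I-BRD9, 1353 to 1848 CPM in TCam-2 with DMSO and 101 to 197 CPM in 2102 EP, where SOX17 and PRAME were at 0 in all 3 I-BRD9 libraries. Both marker sums thus matched the labelled line, and both were lower with I-BRD9 in the line they mark. TFAP2C made up most of the seminoma sum in TCam-2, at a mean of 994 CPM with I-BRD9 and 1208 CPM with DMSO. Its own groups overlapped there, while SOX17, PRAME and PRDM1 were lower with I-BRD9 without overlap. In 2102 EP the seminoma sum was nearly all TFAP2C. Mitochondrial transcripts made up 6.07 to 7.76% of counts in TCam-2 with I-BRD9, 7.02 to 7.4% in TCam-2 with DMSO, 10.8 to 11.4% in 2102 EP with I-BRD9 and 8.21 to 10.1% in 2102 EP with DMSO. The 5 fibroblast markers summed to 87.7 to 135 CPM in TCam-2 with I-BRD9, 167 to 179 CPM in TCam-2 with DMSO and 17.6 to 25.2 CPM in 2102 EP, with DCN at 0 in 11 of 12 libraries. COL1A2 made up most of the fibroblast sum in TCam-2, at a mean of 93 CPM with I-BRD9 and 150 CPM with DMSO. Leukocyte markers stayed at 0.669 to 2.45 CPM and Sertoli cell markers at 4.29 to 15.5 CPM. The part of these shifts in the results on splicing factors was not tested.

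The promoters of 3 members are shown, because these genes were lower with I-BRD9 in both lines and had large summed falls among abundant members with 1 promoter window. ESRP1 is not shown, although it was also lower in both lines (log2 fold change -0.34 in TCam-2 and -1.25 in 2102 EP). The 3 promoters are thus not the top of a ranking of all members. They are RefSeq windows on GRCh38.p14, from 250 bases before to 50 bases after the transcription start, written 5′ to 3′ on the minus strand: U2AF1 at chr21:43107521-43107820, HNRNPD at chr4:82373942-82374241 and SRSF10 at chr1:23980278-23980577. Capitals mark a match on either strand to 1 of 5 motifs, the E-box CACGTG, the TATA motif TATAAA, the ETS core CCGGAA, the GC box GGGCGG and the CCAAT box CCAAT.
U2AF1: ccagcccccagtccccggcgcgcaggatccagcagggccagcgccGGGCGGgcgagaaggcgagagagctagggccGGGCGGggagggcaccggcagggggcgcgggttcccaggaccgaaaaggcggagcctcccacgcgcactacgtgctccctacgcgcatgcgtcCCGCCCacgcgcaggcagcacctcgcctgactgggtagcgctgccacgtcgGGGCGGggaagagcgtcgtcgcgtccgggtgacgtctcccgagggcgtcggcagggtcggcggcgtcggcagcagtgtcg
HNRNPD: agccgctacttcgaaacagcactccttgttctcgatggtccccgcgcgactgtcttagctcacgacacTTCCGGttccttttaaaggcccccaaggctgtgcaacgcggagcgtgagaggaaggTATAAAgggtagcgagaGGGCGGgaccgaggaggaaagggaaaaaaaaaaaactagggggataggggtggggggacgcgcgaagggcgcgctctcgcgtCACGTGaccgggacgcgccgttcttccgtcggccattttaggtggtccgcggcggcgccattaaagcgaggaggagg
SRSF10: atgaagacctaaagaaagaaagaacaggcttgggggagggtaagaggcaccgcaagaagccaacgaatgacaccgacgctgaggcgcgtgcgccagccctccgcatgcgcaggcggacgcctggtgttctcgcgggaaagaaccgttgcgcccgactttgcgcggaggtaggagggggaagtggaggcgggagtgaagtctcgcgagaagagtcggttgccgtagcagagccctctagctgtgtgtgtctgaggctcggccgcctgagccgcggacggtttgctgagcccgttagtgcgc
The U2AF1 window held 4 GC boxes. The HNRNPD window held 1 E-box, 1 TATA motif, 1 ETS core and 1 GC box, and the SRSF10 window held none of the 5 motifs. Over the 116 windows of the 81 members found in the table, an ETS core was present in 28.4%, against 17.2% of all 35116 windows, and a GC box in 61.2% against 45.0%. A CCAAT box was present in 41.4% against 34.6%, an E-box in 10.3% against 7.26% and a TATA motif in 7.76% against 11.5%. Different motifs overlapped in 1 member window.

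Splicing factors took a smaller share of the transcriptome with I-BRD9 in both lines. The 90 members summed to 17528 ± 59.4 CPM in TCam-2 with I-BRD9 and 20524 ± 118 CPM in TCam-2 with DMSO (SD, n = 3 each). In 2102 EP they summed to 17114 ± 85.9 CPM with I-BRD9 and 21620 ± 378 CPM with DMSO. The groups did not overlap in either line. SR proteins were lower as a group in both lines, with 2423 ± 71.1 CPM with I-BRD9 and 2980 ± 97.3 CPM with DMSO in TCam-2, and 2695 ± 73.1 CPM with I-BRD9 and 3329 ± 60.1 CPM with DMSO in 2102 EP. The hnRNP sum differed less in TCam-2, with 8964 ± 215 CPM with I-BRD9 and 10232 ± 215 CPM with DMSO, than in 2102 EP, with 8062 ± 319 CPM with I-BRD9 and 11222 ± 381 CPM with DMSO. For the RBM genes the order was the other way, with 2831 ± 73.9 CPM with I-BRD9 and 3409 ± 148 CPM with DMSO in TCam-2, whereas in 2102 EP the groups overlapped, at 2887 ± 163 CPM with I-BRD9 and 3053 ± 74.2 CPM with DMSO. These sums are descriptions and were not tested.

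**Figure D1:**
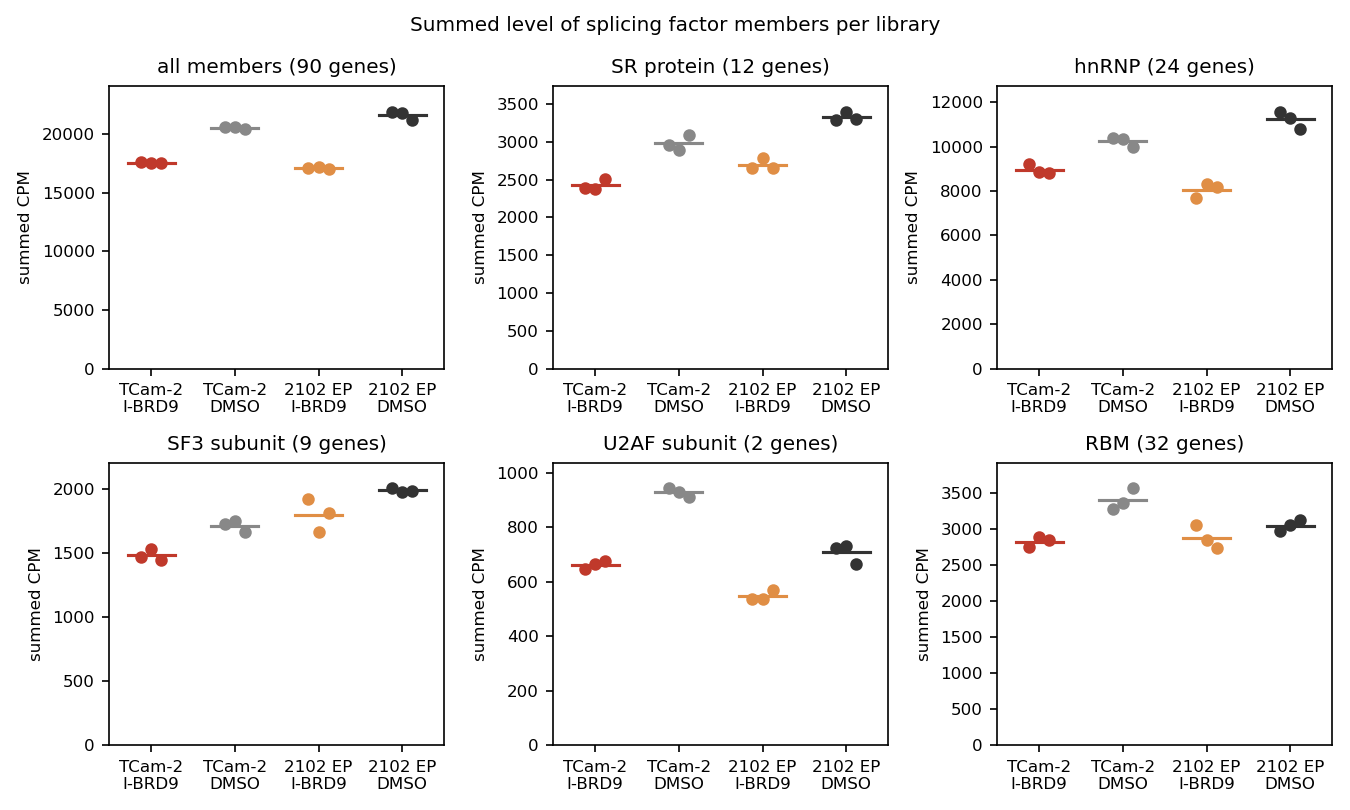
Summed level of the members of 6 groups of splicing factors in each library (y axis, CPM, from 0), for TCam-2 with I-BRD9, TCam-2 with DMSO, 2102 EP with I-BRD9 and 2102 EP with DMSO. Points are libraries and lines are means of 3; all members together lie between 17050 and 17600 CPM in the 6 I-BRD9 libraries, below all 6 DMSO libraries, while the RBM groups overlap in 2102 EP.

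Gene by gene, the calls ran mostly downward. In TCam-2, 36 of 85 members were lower with I-BRD9 and 3 were higher (edgeR quasi-likelihood test, Benjamini-Hochberg adjusted p under 0.05 over all 15614 genes tested), where 16.5% of all genes were called lower and 15.3% higher, 31.8% in all. The I-BRD9 and DMSO libraries did not overlap in 52 members, or 61.2%, against 45.7% of all genes. In 2102 EP, 41 members were lower and 2 were higher, where 18.6% of all genes were called lower and 18.2% higher, 36.8% in all, and 54 members did not overlap, or 63.5%, against 46.3% of all genes. The members' share of lower calls was thus above the background in both lines and their share of higher calls below it. Their median log2 fold change was -0.24 in TCam-2 and -0.27 in 2102 EP, where the median of all genes was 0.01 in TCam-2 and 0.00 in 2102 EP. The 2 higher members in 2102 EP became 6 without 2102 EP with I-BRD9 replicate 2, 4 without 2102 EP with DMSO replicate 1, 5 without 2102 EP with DMSO replicate 3 and 4 without TCam-2 with I-BRD9 replicate 3.

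Most falls were modest. The called change exceeded 2-fold in 2 members in TCam-2 and in 6 members in 2102 EP, which include the rise of RBM20. The share of all genes beyond 2-fold was not counted. The median absolute log2 fold change was 0.28 over members and 0.34 over all genes in TCam-2. In 2102 EP it was 0.39 over both, so modest size was not particular to the members. The shallowest library, 2102 EP with I-BRD9 replicate 1, held the lowest value of all 12 libraries in 22 of the 85 members (25.9%, against 13.8% of all genes), and without it 37 members were lower and 3 higher in 2102 EP. At the other end, 2102 EP with DMSO replicate 1 held the highest value in 23 members (27.1%, against 9.59% of all genes). Without that library 30 members were lower in 2102 EP in place of 41, the fewest for any library left out. TCam-2 with I-BRD9 replicate 3 held the lowest value in 17 members (20%, against 9.21% of all genes). With scaling by total counts alone, a choice made after seeing the data, 21 members were lower and 4 higher in TCam-2, and 36 were lower and 8 higher in 2102 EP. The whole table moved up under that scaling. The median log2 fold change was then -0.16 over members and 0.08 over all genes in TCam-2. In 2102 EP these medians were -0.20 over members and 0.07 over all genes. Reads shared with other genes touched 37 of the tested members, so those levels are uncertain; among the 48 without shared reads, 20 were lower and 3 higher in TCam-2, and 19 were lower and 2 higher in 2102 EP.

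**Figure D2:**
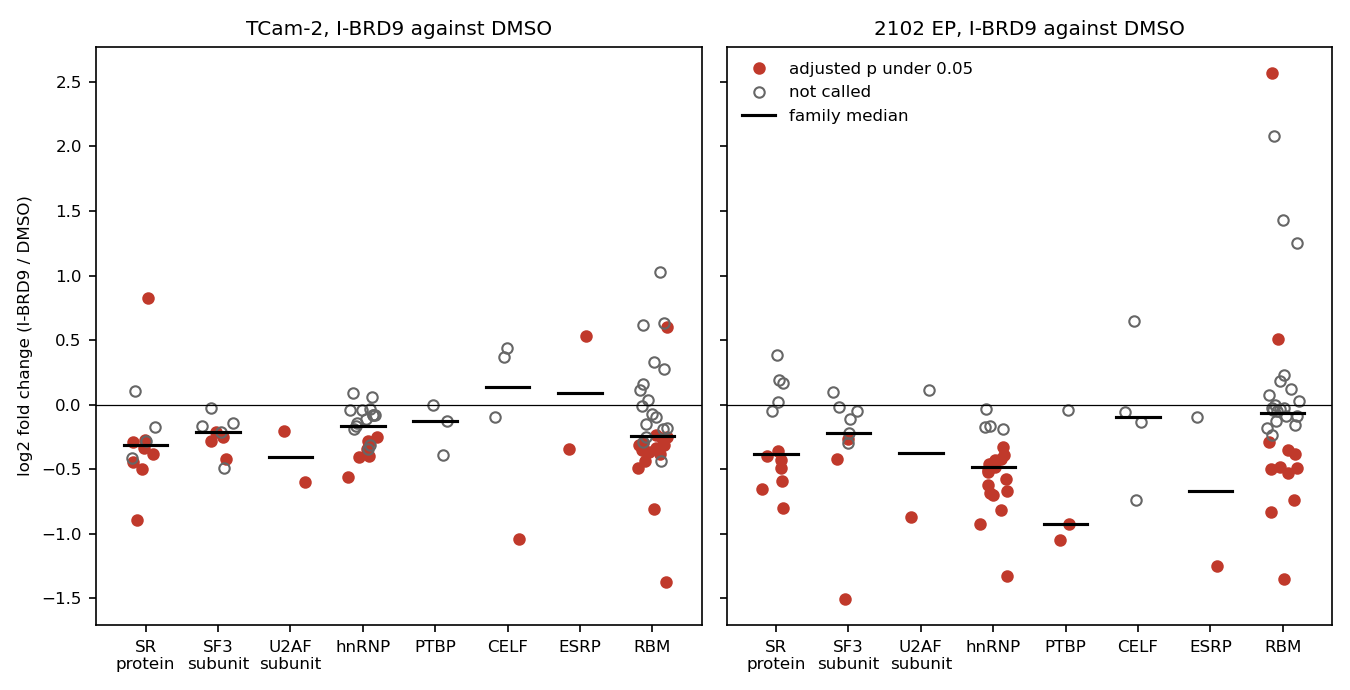
Log2 fold change with I-BRD9 over DMSO for each of the 85 members tested (points), by family and line. Filled points passed the test; most lie below 0, the hnRNP points lie lower in 2102 EP (median -0.48) than in TCam-2 (median -0.16), and the RBM points lie lower in TCam-2 (median -0.24) than in 2102 EP (median -0.07).

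Among the SR proteins, 7 of 12 were lower with I-BRD9 in each line, 1 (SRSF12) was higher in TCam-2 and none was higher in 2102 EP. The 7 are 58.3% of the family, where 16.5% of all genes were lower in TCam-2 and 18.6% in 2102 EP. The median log2 fold change of the family was -0.31 in TCam-2 and -0.38 in 2102 EP. SRSF2, SRSF3, SRSF6, SRSF7 and SRSF10 were lower in both lines. SRSF3 (chr6:36594353-36605600, plus strand), the smallest SR protein and also a factor of transcript export, was the second most abundant SR gene after SRSF11. It had 448, 424 and 390.3 CPM in TCam-2 with I-BRD9, against 564, 543 and 488 CPM with DMSO, and 402, 426 and 437 CPM in 2102 EP with I-BRD9, against 643, 644 and 614 CPM with DMSO. All I-BRD9 libraries lay below all DMSO libraries in both lines. The log2 fold change was -0.34 ± 0.08 in TCam-2 (SE, edgeR adjusted p = 0.00217) and -0.59 ± 0.08 in 2102 EP (adjusted p = 4.28e-06).

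SRSF10 (chr1:23964804-23980927, minus strand), which turns into a repressor of splicing when dephosphorylated, had the largest fall of the family in TCam-2. There it had 102, 109 and 108 CPM with I-BRD9, against 189, 189.9 and 212 CPM with DMSO. In 2102 EP it had 169, 166 and 148 CPM with I-BRD9, against 199, 212 and 226 CPM with DMSO. The groups were apart in both lines, and further apart in TCam-2. SRSF10 fell by 0.89 ± 0.08 on the log2 scale in TCam-2 (edgeR adjusted p = 1.63e-08) and by 0.40 ± 0.08 in 2102 EP (adjusted p = 0.00045).

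SRSF2, a classical activator of exons, had 176, 157 and 179 CPM in TCam-2 with I-BRD9, against 241, 222 and 233 CPM with DMSO. It had 125, 172 and 164 CPM in 2102 EP with I-BRD9, against 259, 253 and 216 CPM with DMSO. Neither pair of groups overlapped, and the log2 fold change was -0.44 ± 0.10 in TCam-2 (edgeR adjusted p = 0.00162) and -0.65 ± 0.10 in 2102 EP (adjusted p = 2.68e-05). SRSF8, a close relative of SRSF2, is described with the comparison of the lines. SRSF12, an atypical member that antagonises other SR proteins, had 14.3, 17.1 and 15.5 CPM in TCam-2 with I-BRD9, against 10.2, 8.17 and 8.08 CPM with DMSO. It rose there by 0.83 ± 0.16 on the log2 scale (edgeR adjusted p = 0.000404), while in 2102 EP it had 13.0, 13.6 and 13.9 CPM with I-BRD9, against 13.7, 10.8 and 11.5 CPM with DMSO, groups that overlapped.

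SRSF1, the founding member of the family, varied widely between replicates. It had 111, 95.4 and 150.1 CPM in TCam-2 with I-BRD9, against 154, 136 and 186 CPM with DMSO, groups that overlapped. Levels in 2102 EP were 69.0, 121 and 112 CPM with I-BRD9, against 193, 199 and 135 CPM with DMSO. Its fall in 2102 EP (log2 fold change -0.80 ± 0.26, edgeR adjusted p = 0.0426) did not hold when single libraries were left out. The adjusted p was 0.115 without 2102 EP with I-BRD9 replicate 1, 0.074 without I-BRD9 replicate 3, 0.124 without DMSO replicate 1 and 0.133 without DMSO replicate 2, and it was 0.0504 to 0.0668 without TCam-2 with I-BRD9 replicate 1 or 2 or any TCam-2 library with DMSO. SRSF5 and SRSF11, which were not called in either line, had log2 fold changes of 0.10 ± 0.07 and -0.17 ± 0.10 in TCam-2, and of 0.19 ± 0.08 and 0.02 ± 0.10 in 2102 EP.

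Of the 9 SF3 subunits, 4 were lower with I-BRD9 in TCam-2 (SF3A1, SF3A3, SF3B2 and SF3B3), 3 were lower in 2102 EP (SF3A3, SF3B1 and SF3B4) and none was higher. Calls in either direction made up 44.4% of the subunits in TCam-2, against 31.8% of all genes, and 33.3% in 2102 EP, against 36.8%. The count in either direction in 2102 EP was thus no more than the background. All calls of subunits ran downward, where 16.5% of all genes were lower in TCam-2 and 18.6% in 2102 EP. The family median was -0.21 in TCam-2 and -0.22 in 2102 EP. SF3A3, the subunit that ties SF3a to the U2 particle, was lower in both. It had 106, 111 and 98.9 CPM in TCam-2 with I-BRD9, against 141, 131 and 149.6 CPM with DMSO, and 267, 278 and 294 CPM in 2102 EP with I-BRD9, against 369, 379 and 375 CPM with DMSO. The groups were apart in both lines and the log2 fold change was the same to 2 decimals, -0.42 ± 0.08 in TCam-2 (edgeR adjusted p = 0.000201) and -0.42 ± 0.07 in 2102 EP (adjusted p = 0.000113). The 3 other calls in TCam-2 were small, from -0.21 to -0.28 on the log2 scale, and the count of lower subunits was 2 without TCam-2 with I-BRD9 replicate 1, 2 without TCam-2 with I-BRD9 replicate 3 and 1 without TCam-2 with DMSO replicate 2.

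SF3B4 (chr1:149923317-149928344, minus strand), which touches the transcript just before the branch point, had the lowest log2 fold change of all members in 2102 EP. It had 12.1, 31.4 and 25.1 CPM there with I-BRD9, against 81.7, 66.4 and 49.1 CPM with DMSO. The groups were apart, and the spread within each was wide (log2 fold change -1.50 ± 0.35, edgeR adjusted p = 0.00915). SF3B4 shared reads with another gene in 11 of the 12 libraries, so its level is uncertain. In TCam-2 it had 55, 37.0 and 66.8 CPM with I-BRD9, against 68.6, 73.1 and 81.6 CPM with DMSO, which did not pass the test (log2 fold change -0.49 ± 0.32, adjusted p = 0.305). SF3B1, the scaffold around the branch point and a gene often mutated in leukaemia, had 224, 237 and 217 CPM in TCam-2 with I-BRD9, against 261, 245 and 241 CPM with DMSO. The 2102 EP libraries had 125, 119 and 128 CPM with I-BRD9, against 166, 146 and 136 CPM with DMSO. It fell by 0.27 ± 0.08 on the log2 scale in 2102 EP (edgeR adjusted p = 0.0126), a call lost without 2102 EP with I-BRD9 replicate 2 (adjusted p = 0.0605) and without 2102 EP with DMSO replicate 1 (adjusted p = 0.118).

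U2AF1 (chr21:43092956-43107587, minus strand), which reads the AG at the end of the intron and whose promoter is shown above, fell in both lines. It had 429, 449 and 481 CPM in TCam-2 with I-BRD9, against 702, 678 and 678 CPM with DMSO. In 2102 EP it had 187, 229 and 257 CPM with I-BRD9, against 418, 436 and 377 CPM with DMSO. No I-BRD9 library reached a DMSO library of its line. The log2 fold change was -0.60 ± 0.09 in TCam-2 (edgeR adjusted p = 3.25e-05) and -0.87 ± 0.10 in 2102 EP (adjusted p = 2.21e-07). U2AF1 shared reads with another gene in all 12 libraries, so its level is uncertain. U2AF2, its partner on the pyrimidine tract, had 216, 217 and 196 CPM in TCam-2 with I-BRD9, against 241, 249.8 and 233 CPM with DMSO. Levels in 2102 EP were 349, 307 and 311 CPM with I-BRD9, against 306, 297 and 288 CPM with DMSO, so that the I-BRD9 libraries lay below DMSO in TCam-2 and above it in 2102 EP. The fall in TCam-2 passed the test (log2 fold change -0.20 ± 0.07, edgeR adjusted p = 0.0402), and the value in 2102 EP did not (0.12 ± 0.07, adjusted p = 0.237). Leaving out TCam-2 with I-BRD9 replicate 1, 2 or 3 took the TCam-2 value to an adjusted p of 0.0519, 0.0503 or 0.161, and leaving out TCam-2 with DMSO replicate 1 or 2 took it to 0.0665 or 0.126.

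The hnRNP genes were the family with the most calls in 2102 EP, where 17 of 21 tested were lower with I-BRD9 and none was higher. The 17 became 12 without 2102 EP with DMSO replicate 1. In TCam-2, 7 were lower and none was higher, and all 7 (HNRNPC, HNRNPD, HNRNPU, HNRNPAB, HNRNPH1, HNRNPH3 and HNRNPUL1) were also lower in 2102 EP. The lower calls were 33.3% of the tested hnRNP genes in TCam-2, against 16.5% of all genes, and 81% in 2102 EP, against 18.6%. The groups did not overlap in 8 members in TCam-2, or 38.1%, which is below the 45.7% of all genes, and in 19 members in 2102 EP, or 90.5%, against 46.3%. Only HNRNPR, HNRNPA0, HNRNPLL and HNRNPUL2 were called in neither line.

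HNRNPD (chr4:82352498-82374503, minus strand), also known as AUF1, a binder of AU-rich elements that govern transcript decay, had the lowest adjusted p of the hnRNP genes in 2102 EP. It had 378, 374 and 336 CPM in TCam-2 with I-BRD9, against 502, 476 and 466 CPM with DMSO. The 2102 EP libraries had 301, 276 and 283 CPM with I-BRD9, against 558, 525 and 545 CPM with DMSO. The replicates lay close together and the groups apart in both lines. The log2 fold change was -0.41 ± 0.08 in TCam-2 (edgeR adjusted p = 0.000203) and -0.92 ± 0.08 in 2102 EP (adjusted p = 2.36e-09). Its window, shown above, was the only 1 of the 3 with a TATA motif and an E-box.

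HNRNPK, a binder of C-rich stretches, was the most abundant member in every group, at 1267 ± 29.8 CPM in TCam-2 with I-BRD9, 1418 ± 52.9 CPM in TCam-2 with DMSO, 1205 ± 14 CPM in 2102 EP with I-BRD9 and 1576 ± 50.4 CPM in 2102 EP with DMSO (SD, n = 3 each). It fell in 2102 EP (log2 fold change -0.39 ± 0.07, edgeR adjusted p = 0.000198) and was not called in TCam-2 (-0.16 ± 0.07, adjusted p = 0.0906). HNRNPA2B1 (chr7:26173057-26201529, minus strand), a core packaging protein that also sorts transcripts for transport, had 763, 748 and 869 CPM in TCam-2 with I-BRD9, against 821, 764 and 859.6 CPM with DMSO, groups that overlapped (log2 fold change -0.04 ± 0.10, adjusted p = 0.824). In 2102 EP it had 505, 657 and 731 CPM with I-BRD9, against 1028, 1024 and 985 CPM with DMSO, all apart, and it fell by 0.68 ± 0.10 on the log2 scale (edgeR adjusted p = 2.09e-05).

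HNRNPAB, a relative of HNRNPD, moved by a similar amount in both lines. It had 348, 309.9 and 279 CPM in TCam-2 with I-BRD9, against 466, 503 and 416 CPM with DMSO, and 351, 352 and 381 CPM in 2102 EP with I-BRD9, against 510.1, 514 and 517 CPM with DMSO. The groups were apart in both lines (log2 fold change -0.56 ± 0.09, edgeR adjusted p = 2.66e-05 in TCam-2 and -0.51 ± 0.09, adjusted p = 7.94e-05 in 2102 EP). HNRNPF, a binder of G-runs, had 49.5, 125 and 108 CPM in 2102 EP with I-BRD9, against 276, 253 and 183 CPM with DMSO. Its low value sat in replicate 1, the library that was also lowest for SF3B4 and SRSF1, and its fall (log2 fold change -1.32 ± 0.34, edgeR adjusted p = 0.0165) was lost without 2102 EP with DMSO replicate 1 (adjusted p = 0.0579) and without DMSO replicate 2 (adjusted p = 0.0524). The HNRNPF call was also lost with the replicate number (adjusted p = 0.0507) or the library codes (0.0564) as a block in the model. A fit to only the 6 libraries compared lost it too (0.0779). The fall of HNRNPL in 2102 EP was lost without DMSO replicate 1 or 2 (adjusted p = 0.0891 and 0.0869). It was also lost with no count filter (0.0704) and in the fit to 6 libraries (0.0715). In TCam-2, HNRNPC and HNRNPH1 lost their calls without TCam-2 with I-BRD9 replicate 3 (adjusted p = 0.0556 and 0.068).

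Of the 3 PTBP genes, PTBP2 and PTBP3 were lower with I-BRD9 in 2102 EP and none was called in TCam-2. The lower calls were 66.7% in 2102 EP, against 18.6% of all genes, and 31.8% of all genes were called in TCam-2. With 3 genes, these shares rest on few members. PTBP1, the general repressor of exons beside pyrimidine tracts, stayed close to its DMSO level, with 569 ± 19.9 CPM with I-BRD9 and 569 ± 95.4 CPM with DMSO in TCam-2, and 629 ± 60.5 CPM with I-BRD9 and 646 ± 13.3 CPM with DMSO in 2102 EP (SD, n = 3 each). PTBP3 (chr9:112217716-112333667, minus strand), a paralogue first described in blood cells, had 104, 100.1 and 108 CPM in TCam-2 with I-BRD9, against 105, 109 and 128 CPM with DMSO. Levels in 2102 EP were 82.9, 97.7 and 90.9 CPM with I-BRD9, against 178, 168 and 169 CPM with DMSO. The groups were far apart in 2102 EP (log2 fold change -0.92 ± 0.09, edgeR adjusted p = 2.69e-08) and overlapped in TCam-2 (-0.13 ± 0.09, adjusted p = 0.287). PTBP2, the neural paralogue, had 9.14, 10.1 and 12.8 CPM in 2102 EP with I-BRD9, against 20.4, 23.7 and 22.5 CPM with DMSO. It fell there by 1.05 ± 0.17 on the log2 scale (edgeR adjusted p = 5.38e-05), and in TCam-2 it lay below 5 CPM in every library.

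CELF2 (chr10:10798397-11336675, plus strand), a regulator of exons in muscle, brain and T cells, was the member with the largest called fall above 10 CPM in TCam-2. It had 57.9, 56.1 and 62.6 CPM there with I-BRD9, against 127, 120.0 and 116 CPM with DMSO (log2 fold change -1.04 ± 0.11, edgeR adjusted p = 1.89e-07). The 2102 EP libraries had 18.1, 20.2 and 16.8 CPM with I-BRD9, against 15.1, 23.7 and 18.8 CPM with DMSO, groups that overlapped (-0.06 ± 0.13, adjusted p = 0.778). No other CELF gene was called in either line. Of the 4 CELF genes tested, 25% were thus called in TCam-2, against 31.8% of all genes. None was called in 2102 EP, where 36.8% of all genes were.

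The 2 epithelial splicing regulators, which keep epithelial exon choices in place, moved in different ways. ESRP1 had 86.0, 92.1 and 83.6 CPM in TCam-2 with I-BRD9, against 112, 109.8 and 110.4 CPM with DMSO. In 2102 EP it had 39.5, 42.5 and 39.6 CPM with I-BRD9, against 96.6, 102 and 90.8 CPM with DMSO. Replicates were tight and the groups apart in both lines. ESRP1 fell by 0.34 ± 0.08 on the log2 scale in TCam-2 (edgeR adjusted p = 0.0022) and by 1.25 ± 0.09 in 2102 EP (adjusted p = 1.2e-10). ESRP2 (chr16:68229111-68238102, minus strand) had 60.3, 66.0 and 63.8 CPM in TCam-2 with I-BRD9, against 39.5, 45.9 and 46.2 CPM with DMSO, and it rose there by 0.53 ± 0.12 on the log2 scale (edgeR adjusted p = 0.00153). In 2102 EP its groups overlapped, at 19.4, 14.1 and 13.5 CPM with I-BRD9, against 14.3, 17.2 and 18.3 CPM with DMSO. The sum of both genes was 151 ± 6.5 CPM with I-BRD9 and 155 ± 2.69 CPM with DMSO in TCam-2, and 56.2 ± 2.92 CPM with I-BRD9 and 113 ± 5.48 CPM with DMSO in 2102 EP.

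**Figure D3:**
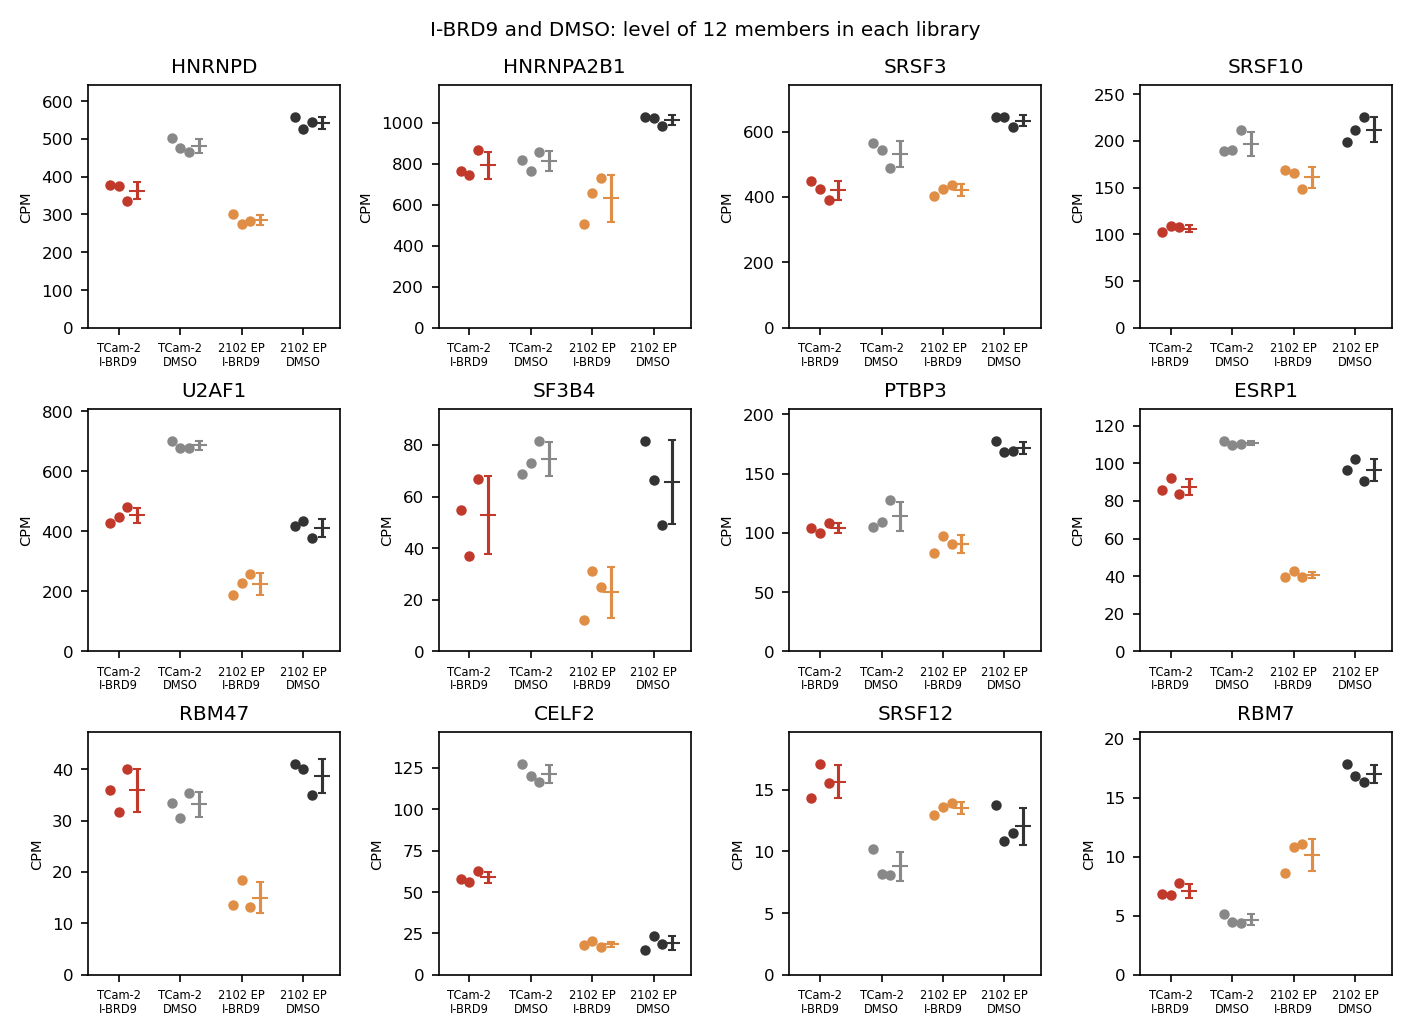
Level of 12 members in each library (y axis, CPM, from 0; points are libraries, bars are means and error bars SD, n = 3), for TCam-2 with I-BRD9, TCam-2 with DMSO, 2102 EP with I-BRD9 and 2102 EP with DMSO. HNRNPD, SRSF3, SRSF10 and U2AF1 are lower with I-BRD9 in both lines, PTBP3 and RBM47 in 2102 EP, CELF2 in TCam-2, and ESRP1 in both with the wider gap in 2102 EP.

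The RBM genes, a loose group that shares an RNA-binding motif, were the only family with calls in both directions in 2102 EP, where 10 of 32 were lower and 2 higher with I-BRD9. In TCam-2, 14 were lower and 1 was higher. In all, 37.5% of the RBM genes were called in 2102 EP, near the 36.8% of all genes, and 46.9% in TCam-2, against 31.8%. Lower calls made up 31.2% in 2102 EP, against 18.6% of all genes, and 43.8% in TCam-2, against 16.5%. Higher calls made up 6.25% in 2102 EP, against 18.2%, and 3.12% in TCam-2, against 15.3%. RBM3, RBM4, RBM12, RBM14, RBM26 and RBM27 were lower in both lines. The falls in TCam-2 ran from -0.24 (RBM17) to -1.37 (RBM24) on the log2 scale, with RBM14 next to RBM24 at -0.80. The count of lower RBM genes in TCam-2 moved with single libraries and was 8 without TCam-2 with I-BRD9 replicate 1, 9 without I-BRD9 replicate 3, 9 without DMSO replicate 2 and 7 without DMSO replicate 3.

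RBM14, a paraspeckle protein and coactivator, had 31.2, 30.6 and 27.3 CPM in TCam-2 with I-BRD9, against 56.1, 51.6 and 48.1 CPM with DMSO. It had 45.7, 41.3 and 40.9 CPM in 2102 EP with I-BRD9, against 62.6, 54.0 and 46.3 CPM with DMSO. The gap was wide in TCam-2 (log2 fold change -0.80 ± 0.11, edgeR adjusted p = 8.7e-06) and narrow in 2102 EP (-0.35 ± 0.11, adjusted p = 0.0159), where leaving out 1 library could end the call. The adjusted p there was 0.0586 and 0.0537 when the second or the third I-BRD9 library was dropped, and 0.143 when DMSO replicate 1 was dropped. RBM14 shared reads with another gene in 10 of the 12 libraries, so its level is uncertain. RBM4, a regulator of tissue-specific exons, had 108, 101 and 114 CPM in TCam-2 with I-BRD9, against 149.8, 147 and 157 CPM with DMSO. It had 67.1, 93.2 and 88.0 CPM in 2102 EP with I-BRD9, against 109.6, 116 and 99.6 CPM with DMSO. Both pairs of groups were apart (log2 fold change -0.49 ± 0.10, edgeR adjusted p = 0.000601 in TCam-2 and -0.39 ± 0.10, adjusted p = 0.00476 in 2102 EP), though RBM4 shared reads with another gene in all 12 libraries.

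RBM47 (chr4:40423267-40630875, minus strand), a partner in RNA editing and an epithelial splicing regulator, had 13.5, 18.4 and 13.2 CPM in 2102 EP with I-BRD9, against 41.0, 40 and 34.9 CPM with DMSO. It fell there by 1.35 ± 0.14 on the log2 scale (edgeR adjusted p = 6.83e-08). In TCam-2 it had 35.9, 31.6 and 40 CPM with I-BRD9, against 33.4, 30.6 and 35.4 CPM with DMSO, groups that overlapped. RBM7 (chr11:114400030-114414203, plus strand), a subunit of a complex that sends nuclear transcripts to the exosome, was the only member called in opposite directions. It had 6.82, 6.73 and 7.77 CPM in TCam-2 with I-BRD9, against 5.19, 4.46 and 4.41 CPM with DMSO, and 8.59, 10.8 and 11 CPM in 2102 EP with I-BRD9, against 17.8, 16.9 and 16.4 CPM with DMSO. It rose by 0.60 ± 0.19 on the log2 scale in TCam-2 (edgeR adjusted p = 0.0172) and fell by 0.74 ± 0.17 in 2102 EP (adjusted p = 0.00117). The rise was lost without TCam-2 with I-BRD9 replicate 3 (adjusted p = 0.0676), without DMSO replicate 2 (adjusted p = 0.0635) and without DMSO replicate 3 (adjusted p = 0.0616). RBM7 made up 1.18% of the members tested, near the 131 genes, or 0.839% of all, called higher in TCam-2 and lower in 2102 EP. Another 142 genes, or 0.909% of all, were called the other way, and no member was.

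Both RBM genes that were higher in 2102 EP were at modest levels. RBM20, the regulator of titin exons in the heart, had 11.3, 6.71 and 10.6 CPM there with I-BRD9, against 1.72, 1.65 and 1.41 CPM with DMSO, the widest relative gap among I-BRD9 calls of members (log2 fold change 2.57 ± 0.34, edgeR adjusted p = 2.98e-06). It is named for its size of change and lies just under the level of 10 CPM asked of other named genes. RBM23, a relative of RBM39, had 43.1, 31.5 and 34.2 CPM in 2102 EP with I-BRD9, against 25.5, 22 and 28.5 CPM with DMSO (log2 fold change 0.51 ± 0.14, edgeR adjusted p = 0.00516). In TCam-2 RBM20 lay below 2 CPM in every library, and RBM23 had 31.7, 33.3 and 32.8 CPM with I-BRD9, against 30.3, 22.4 and 25.0 CPM with DMSO (0.33 ± 0.14, adjusted p = 0.0674).

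Set against each other, 21 of 85 members, or 24.7%, were lower in both lines, where 8.51% of all genes were lower in both and 8.26% higher in both. These members were SRSF2, SRSF3, SRSF6, SRSF7, SRSF10, SF3A3, U2AF1, HNRNPC, HNRNPD, HNRNPU, HNRNPAB, HNRNPH1, HNRNPH3, HNRNPUL1, ESRP1, RBM3, RBM4, RBM12, RBM14, RBM26 and RBM27. A further 15 (17.6%) were lower in TCam-2 without a call in 2102 EP, against 7.04% of all genes, 19 (22.4%) were lower in 2102 EP without a call in TCam-2, against 9.24%, and no member was higher in both. Of the 21, SRSF7, HNRNPC, HNRNPU, HNRNPH1, RBM26 and RBM27 lost the TCam-2 call and RBM14 the 2102 EP call when some single library was left out, with adjusted p-values of at most 0.143.

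A call in 1 line and none in the other does not show a difference, which was tested directly as the TCam-2 change minus the 2102 EP change. It passed in 18 of 85 members (21.2%), where 13.1% of all genes passed. In 11 members the value was above 0, that is, higher in TCam-2 relative to 2102 EP, against a background of 5.9%, and in 7 it was below 0, against 7.19%. All 6 called hnRNP genes (HNRNPA2B1, HNRNPA3, HNRNPD, HNRNPDL, HNRNPU and HNRNPA1) lay above 0, and the median difference over the 21 hnRNP genes was 0.32, against -0.01 over all genes. No SF3 subunit was called.

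The largest positive differences among those called were those of RBM47 at 1.47 ± 0.19 (edgeR adjusted p = 7.47e-06), RBM7 at 1.34 ± 0.25 (adjusted p = 0.000633), ESRP1 at 0.91 ± 0.12 (adjusted p = 8.74e-06) and PTBP3 at 0.79 ± 0.12 (adjusted p = 9.57e-05). HNRNPD differed by 0.51 ± 0.11 (adjusted p = 0.00169) and HNRNPA2B1 by 0.64 ± 0.15 (adjusted p = 0.00417), and both had the lower log2 fold change in 2102 EP. The largest negative differences among called members above 10 CPM were those of CELF2 at -0.98 ± 0.17 (edgeR adjusted p = 0.000367), SRSF8 at -0.88 ± 0.19 (adjusted p = 0.00229), SRSF10 at -0.49 ± 0.11 (adjusted p = 0.00485) and RBM39 at -0.49 ± 0.13 (adjusted p = 0.012). RBM39, a U2AF-related factor, had 499, 543 and 491 CPM in TCam-2 with I-BRD9, against 595, 627 and 614 CPM with DMSO. Levels in 2102 EP were 635, 519 and 481 CPM with I-BRD9, against 437, 471 and 487 CPM with DMSO, groups that overlapped. Without 2102 EP with DMSO replicate 2, or without TCam-2 with I-BRD9 replicate 3, the count of differences above 0 was 7 in place of 11. The differences of ESRP2, HNRNPA1, HNRNPA3, HNRNPU, RBM28 and U2AF2 did not pass without some single libraries, with adjusted p-values of up to 0.136.

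**Figure D4:**
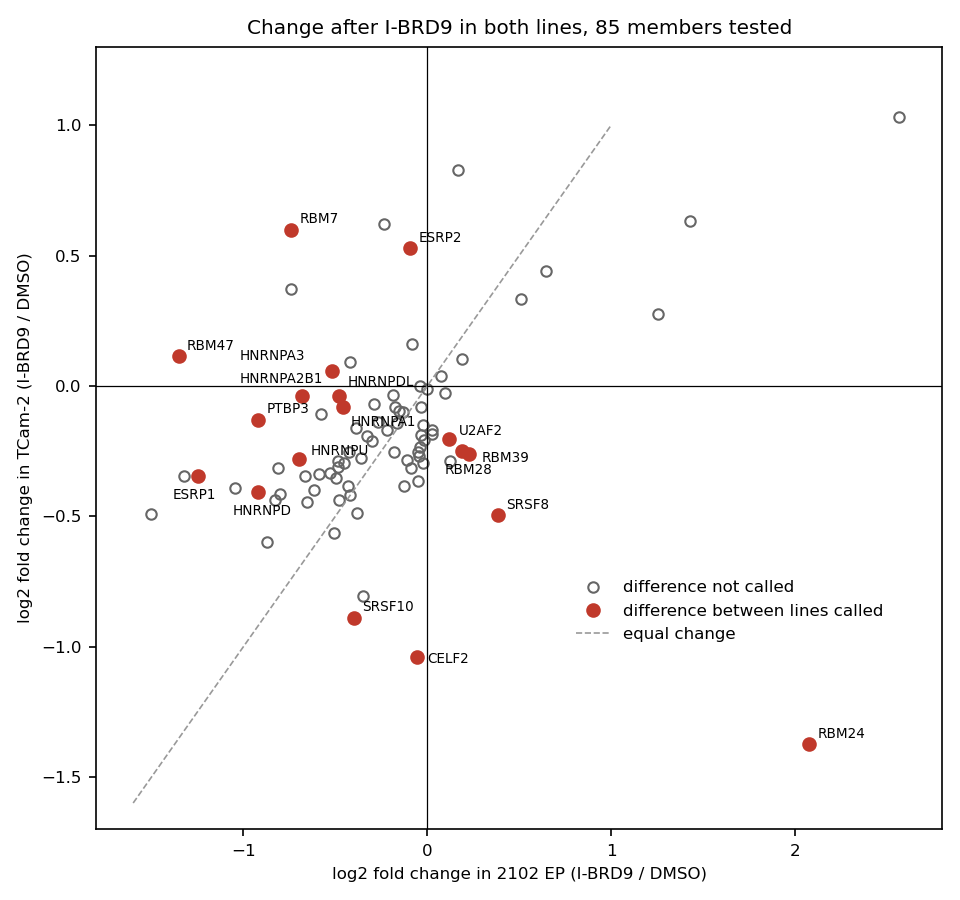
Log2 fold change with I-BRD9 over DMSO in TCam-2 (y axis) and in 2102 EP (x axis) for the 85 members tested. Filled, named points are the 18 members whose difference between the lines passed the test, and the dashed line marks equal change; RBM47, RBM7, PTBP3 and ESRP1 lie above the line and SRSF8, SRSF10, CELF2 and RBM24 below it.

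RBM24, a muscle splicing factor, rested on few reads. It had 3.76, 3.84 and 3.02 CPM in TCam-2 with I-BRD9, against 10.9, 8.17 and 8.57 CPM with DMSO, and it fell there by 1.37 ± 0.30 on the log2 scale (edgeR adjusted p = 0.00121). The 2102 EP libraries had 10 counts over the I-BRD9 libraries and 2 over the DMSO libraries, a ratio of 4.76 with a 95% counting interval of 1.02 to 44.7, which covers counting error only. Its difference between the lines of -3.45 ± 0.87 (adjusted p = 0.00927) rests on those 2 counts.

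Without I-BRD9, the lines already differed in these genes. With DMSO, 19 members were higher in TCam-2 than in 2102 EP and 32 were lower, 60% of those tested in all, where 62.6% of all genes were called, 31.7% higher and 30.8% lower. The groups did not overlap in 60 members, or 70.6%, against 67.6% of all genes. The members' share of calls was thus near the background. Their median log2 difference was -0.15, against 0.02 over all genes.

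Among members called with DMSO and above 10 CPM in the higher line, the widest gaps were those of SRSF8 and CELF2 on the TCam-2 side and of PTBP2 and HNRNPH2 on the 2102 EP side. SRSF8 (chr11:95067197-95071224, plus strand) had 52.7, 49.1 and 54.6 CPM in TCam-2 with I-BRD9 and 10.5, 11.2 and 9.93 CPM in 2102 EP with I-BRD9. With DMSO it had 67.8, 72.7 and 80.4 CPM in TCam-2 and 9.72, 6.37 and 8.18 CPM in 2102 EP. The lines stayed far apart with either agent (log2 difference 3.18 ± 0.13 with DMSO, edgeR adjusted p = 2.84e-15, and 2.30 ± 0.13 with I-BRD9, adjusted p = 5.8e-13), and in TCam-2 SRSF8 fell by 0.50 ± 0.11 with I-BRD9 (adjusted p = 0.00134). With DMSO, CELF2 was higher in TCam-2 by 2.66 ± 0.12 on the log2 scale (adjusted p = 1.8e-14), ESRP2 by 1.40 ± 0.13 (adjusted p = 3.75e-09), U2AF1 by 0.74 ± 0.09 (adjusted p = 4.28e-07), and SF3B1 by 0.74 ± 0.08 (adjusted p = 4.08e-08). With I-BRD9 the difference was 1.67 ± 0.12 for CELF2 (adjusted p = 7.95e-11) and 2.03 ± 0.13 for ESRP2 (adjusted p = 7.48e-12). RBM34, a nucleolar protein, had 163, 168 and 153 CPM in TCam-2 with I-BRD9 and 122, 112 and 112 CPM in 2102 EP with I-BRD9, and 170.0, 196 and 183 CPM in TCam-2 with DMSO and 103, 115 and 123 CPM in 2102 EP with DMSO. All its TCam-2 libraries lay above all its 2102 EP libraries (log2 difference 0.69 ± 0.08 with DMSO, edgeR adjusted p = 2.38e-07). SF3B4 was higher in TCam-2 with I-BRD9 by 1.19 ± 0.35 (adjusted p = 0.0156), a call lost without TCam-2 with I-BRD9 replicate 3 (adjusted p = 0.0586).

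PTBP2 had 4.96, 4.25 and 4.90 CPM in TCam-2 with DMSO and 20.4, 23.7 and 22.5 CPM in 2102 EP with DMSO (log2 difference -2.24 ± 0.19, edgeR adjusted p = 6.45e-10). HNRNPH2, an X-linked relative of HNRNPF, had 35.2, 31.1 and 26.4 CPM in TCam-2 with DMSO and 154, 145 and 129.6 CPM in 2102 EP with DMSO (-2.21 ± 0.13, adjusted p = 5.81e-12). Both genes lay in separate ranges in the lines. With I-BRD9 the difference was -1.58 ± 0.20 for PTBP2 (adjusted p = 4.32e-07) and -1.69 ± 0.13 for HNRNPH2 (adjusted p = 3.71e-10), and RBM7 differed by -1.86 ± 0.18 with DMSO (adjusted p = 5.55e-09). SF3A3 differed by -1.41 ± 0.08 with either agent (adjusted p = 2.55e-13 with DMSO and 3.68e-13 with I-BRD9). SF3A1, the scaffold of SF3a, had 85.4, 81.7 and 85.8 CPM in TCam-2 with I-BRD9 and 157, 177 and 173 CPM in 2102 EP with I-BRD9, a difference of -1.0 ± 0.08 (adjusted p = 1.24e-10). RBM19, a nucleolar factor of ribosome production, had 35.7, 35.7 and 35.0 CPM in TCam-2 with I-BRD9 and 97.2, 73.6 and 72.0 CPM in 2102 EP with I-BRD9. It differed by -1.18 ± 0.11 with DMSO and -1.19 ± 0.11 with I-BRD9 (adjusted p = 3.16e-09 and 2.96e-09). RBM10, a regulator mutated in lung cancers, had 83.3, 89.3 and 80.8 CPM in TCam-2 with I-BRD9 and 185, 137 and 137 CPM in 2102 EP with I-BRD9 (-0.85 ± 0.10, edgeR adjusted p = 1.59e-07). HNRNPR, 1 of the 4 hnRNP genes called in neither line with I-BRD9, had 254, 256 and 240.5 CPM in TCam-2 with DMSO and 449, 439.6 and 463 CPM in 2102 EP with DMSO (-0.85 ± 0.09, adjusted p = 1.54e-08). In each of these genes the lines did not overlap. RBM46, a germ cell factor, had 136 counts over the TCam-2 libraries with DMSO and 3 over the 2102 EP libraries with DMSO, a ratio of 43.6 (95% counting interval 14.6 to 214). For RBM24 these counts were 239 in TCam-2 and 2 in 2102 EP, a ratio of 115 (31.4 to 954).

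With I-BRD9 the balance between the lines was more even, at 28 members higher and 27 lower in TCam-2, or 64.7% called, where 62.2% of all genes were called, 31.1% in each direction. The groups did not overlap in 59 members, or 69.4%, against 66.3% of all genes. Among the hnRNP genes, 12 were higher and 4 lower in TCam-2 with I-BRD9, and 3 were higher and 6 lower with DMSO. These calls were 76.2% of the tested hnRNP genes with I-BRD9, against 62.2% of all genes. With DMSO they were 42.9%, below the 62.6% of all genes. The 3 higher with DMSO became 6 without 2102 EP with I-BRD9 replicate 1 and 5 without 2102 EP with DMSO replicate 1. HNRNPD lay at 363 ± 23.1 CPM in TCam-2 and 286 ± 12.9 CPM in 2102 EP with I-BRD9 (log2 difference 0.34 ± 0.08, edgeR adjusted p = 0.000438), and at 482 ± 18.8 CPM in TCam-2 and 543 ± 16.4 CPM in 2102 EP with DMSO (-0.17 ± 0.07, adjusted p = 0.0498). HNRNPA2B1 was likewise higher in TCam-2 with I-BRD9 (0.33 ± 0.10, adjusted p = 0.00848) and lower there with DMSO (-0.31 ± 0.10, adjusted p = 0.0116). RBM47 was higher in TCam-2 by 1.24 ± 0.14 with I-BRD9 (adjusted p = 5.17e-08), and with DMSO it was not called (-0.22 ± 0.13, adjusted p = 0.139). ESRP1 was higher by 1.1 ± 0.09 with I-BRD9 (adjusted p = 1.61e-10) and by 0.20 ± 0.08 with DMSO (adjusted p = 0.0377). Near the threshold, HNRNPD with DMSO was lost without 2102 EP with DMSO replicate 1 (adjusted p = 0.114) or 3 (0.0964), TCam-2 with I-BRD9 replicate 1 (0.0564) or 2 (0.0598), and TCam-2 with DMSO replicate 2 (0.113) or 3 (0.141). HNRNPA2B1 was lost with I-BRD9 without 2102 EP with I-BRD9 replicate 1 (adjusted p = 0.0862) or TCam-2 with I-BRD9 replicate 3 (0.0689), and with DMSO without TCam-2 with DMSO replicate 2 (0.0732). ESRP1 with DMSO was lost without 2102 EP with DMSO replicate 1 (adjusted p = 0.0851) or 3 (0.145), and without TCam-2 with DMSO replicate 1, 2 or 3 (0.0742, 0.0681 and 0.0664). The comparisons of the lines with I-BRD9 and with DMSO share no library with each other. Both share libraries with the comparisons of I-BRD9 against DMSO within a line and are not independent of those.

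**Figure D5:**
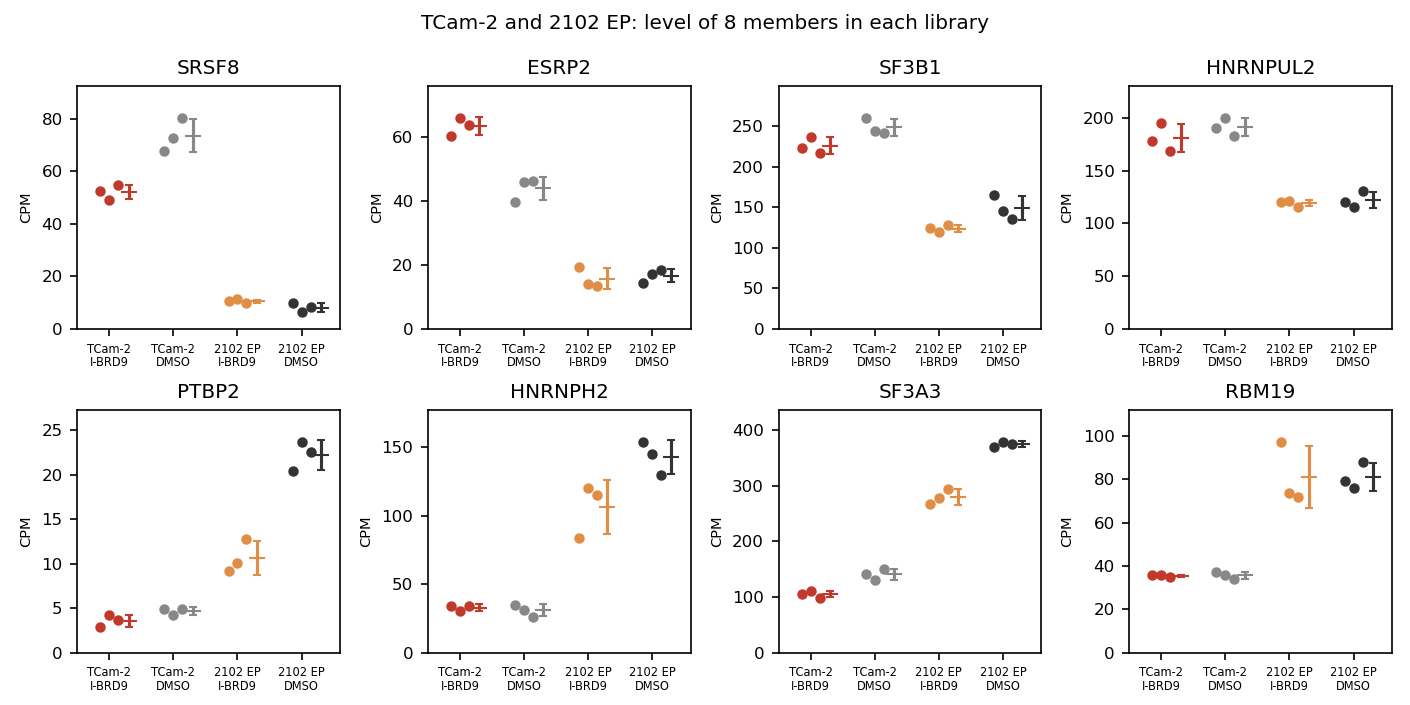
Level of 8 members that differ between the lines (y axis, CPM, from 0; points are libraries, bars are means and error bars SD, n = 3), for TCam-2 with I-BRD9, TCam-2 with DMSO, 2102 EP with I-BRD9 and 2102 EP with DMSO. SRSF8, ESRP2, SF3B1 and HNRNPUL2 are higher in both TCam-2 groups, and PTBP2, HNRNPH2, SF3A3 and RBM19 in both 2102 EP groups.

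Splicing genes outside these families had more lower than higher calls in both lines. Of 99 listed genes, 97 were tested. In TCam-2, 39 were lower and 5 higher with I-BRD9, with a median log2 fold change of -0.21, and in 2102 EP, 28 were lower and 8 higher, with a median of -0.13. Calls in either direction made up 45.4% of them in TCam-2, against 31.8% of all genes, and 37.1% in 2102 EP, near the 36.8% of all genes. Lower calls made up 40.2% in TCam-2, against 16.5%, and 28.9% in 2102 EP, against 18.6%. The 8 became 5 without 2102 EP with DMSO replicate 1 and 4 without 2102 EP with DMSO replicate 2. The Sm and LSm proteins, which form the core of the spliceosomal particles, had 8 of 15 lower and 1 higher in TCam-2 (median -0.41) and 8 lower in 2102 EP (median -0.36). The other U1 and U2 proteins had 8 of 12 lower in TCam-2 and 5 in 2102 EP. The tri-snRNP and activation proteins had 8 of 25 lower in TCam-2, and 6 lower and 1 higher in 2102 EP, so that 32% were called in TCam-2, near the background, and 28% in 2102 EP, below it. Of 8 kinases and phosphatases of SR proteins, none was lower and 1 was higher in each line, or 12.5%, below the background. The other regulators had 15 of 37 lower and 3 higher in TCam-2, and 9 lower and 6 higher in 2102 EP.

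DDX46, the helicase that prepares the U2 particle for the branch point, fell in both lines. It had 241, 273 and 302 CPM in TCam-2 with I-BRD9, against 371, 421 and 531 CPM with DMSO, and 212, 204 and 189.5 CPM in 2102 EP with I-BRD9, against 323, 337 and 363 CPM with DMSO, all apart (log2 fold change -0.70 ± 0.11, edgeR adjusted p = 6.15e-05 in TCam-2 and -0.76 ± 0.11, adjusted p = 2.33e-05 in 2102 EP). PHF5A, a small subunit of SF3b, had 36.7, 55 and 55.4 CPM in 2102 EP with I-BRD9, against 97.4, 88.1 and 83.6 CPM with DMSO, and fell there by 0.86 ± 0.13 on the log2 scale (adjusted p = 1.6e-05). MBNL3, of the muscleblind family, had 5.04, 5.17 and 4.76 CPM in TCam-2 with I-BRD9, against 10.5, 10.8 and 8.82 CPM with DMSO (-1.01 ± 0.18, adjusted p = 0.000138). In 2102 EP it had 22.2, 27.4 and 20.5 CPM with I-BRD9, against 12.6, 14.9 and 12.9 CPM with DMSO (0.80 ± 0.16, adjusted p = 0.000339). The groups were apart in both lines, in opposite directions. RBFOX genes, which act on exons of muscle and brain, also moved: RBFOX1 in TCam-2 had 1.98, 2.04 and 2.55 CPM with I-BRD9, against 9.8, 11.1 and 10.8 CPM with DMSO (-2.27 ± 0.32, adjusted p = 9.56e-06), and RBFOX3 in 2102 EP had 3.27, 5.21 and 2.9 CPM with I-BRD9, against 11.8, 10.3 and 14.3 CPM with DMSO (-1.66 ± 0.28, adjusted p = 7.07e-05).

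Rises outside the families were fewer. SREK1, a serine and arginine rich regulator, had 339.5, 295 and 266 CPM in 2102 EP with I-BRD9, against 167, 177 and 188 CPM with DMSO, and rose there by 0.76 ± 0.12 on the log2 scale (edgeR adjusted p = 5.79e-05). SNRNP27, a tri-snRNP protein, had 177, 155 and 166 CPM in 2102 EP with I-BRD9, against 125, 134 and 133 CPM with DMSO (0.34 ± 0.07, adjusted p = 0.000918). SNRPN, a neuronal variant of a core Sm protein, had 173, 179.7 and 171 CPM in TCam-2 with I-BRD9, against 109, 119 and 124 CPM with DMSO. It rose there by 0.57 ± 0.08 (edgeR adjusted p = 6.88e-06), and in 2102 EP it fell by 0.36 ± 0.08 (adjusted p = 0.0009). KHDRBS3, a STAR family regulator, had 54.1, 51.3 and 61.2 CPM in TCam-2 with I-BRD9, against 40.1, 36.9 and 34.3 CPM with DMSO (0.58 ± 0.12, adjusted p = 0.00084). RBFOX2 had 72.6, 72.8 and 76.3 CPM in TCam-2 with I-BRD9, against 56.8, 62.4 and 54.0 CPM with DMSO (0.36 ± 0.10, adjusted p = 0.00612). In each of these 5 genes the I-BRD9 libraries lay above the DMSO libraries of the line named for the rise. The calls of the genes outside the families described here held under every alternative tried, except that the fall of SNRPN in 2102 EP was not followed.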

How the data were processed

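Total RNA of the 12 samples was made into QuantSeq 3′ libraries, per the labels' protocols. The authors deposited expected counts, 1 per gene and library, and the submitters' processing notes list Salmon 1.9.0, STAR 2.7.11b, Trim Galore, DESeq2 and R 4.2.0, and name GRCh38. How these steps followed each other, which annotation was used and whether strand was used is not given in the sources used for this account, so overlapping and antisense genes are uncertain. Reads shared between genes leave counts further than 0.01 from whole, which was so for 42 of the 90 members in at least 1 library and for 8 in all 12 (SRSF1, U2AF1, HNRNPC, HNRNPK, HNRNPA1, HNRNPA1L3, RBM3 and RBM4).

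The estimated counts were rounded for edgeR 4.0.16, run in R 4.3.3. TMM scaling and filterByExpr were applied, and 1 quasi-likelihood model, with a mean for each of the 4 groups, used all 12 libraries and 15614 genes (8 residual degrees of freedom, common biological coefficient of variation 0.127). I-BRD9 was compared with DMSO in each line, the change in TCam-2 with that in 2102 EP (subtracted), and TCam-2 with 2102 EP under each agent. Benjamini-Hochberg adjustment ran over all genes tested within a comparison. The ± beside a log2 value is its standard error and the ± beside a CPM value the SD over 3 libraries. The labels call the replicates biological without saying that they were separate cultures, so p-values measure the spread between these samples. Replicates of a group differed by more than counting noise.

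Members with full values were named by a rule: the largest called changes per comparison and direction, up to 8 for I-BRD9 against DMSO, 6 between the lines and 4 for the difference, among members with a mean of at least 10 CPM in the higher group. Other splicing genes were named likewise, up to 3 per direction. Members named by role (HNRNPK, SRSF1, SRSF3, SRSF5, SRSF11, PTBP1, HNRNPA2B1, HNRNPC, HNRNPH1, HNRNPL, RBM20, RBM24 and RBM46) or to complete a count were chosen after their values were seen. The members and lists were chosen with earlier results of these data known. Alternatives were RLE, upper-quartile and total-count scaling, other count filters, DESeq2 1.42.0, limma 3.58.1 (voom), unrounded counts, a replicate block, a library-code block, fits to 6 libraries and leaving out each library. The code was tested on simulated data. Gene coordinates are from GENCODE release 29 on GRCh38.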

Additional observations from a re-analysis of the deposited data

Results flagged for a closer look

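The change with I-BRD9 differed between the lines, by the test of the difference itself, in 18 members. No explanation was tested for any of them. Values are the TCam-2 change minus the 2102 EP change on the log2 scale, with edgeR adjusted p-values. The difference was -3.45 for RBM24 (adjusted p = 0.00927), 1.47 for RBM47 (adjusted p = 7.47e-06), 1.34 for RBM7 (adjusted p = 0.000633) and -0.98 for CELF2 (adjusted p = 0.000367). ESRP1 differed by 0.91 (adjusted p = 8.74e-06), SRSF8 by -0.88 (adjusted p = 0.00229), PTBP3 by 0.79 (adjusted p = 9.57e-05), HNRNPA2B1 by 0.64 (adjusted p = 0.00417) and ESRP2 by 0.62 (adjusted p = 0.0279). Smaller differences were seen for HNRNPA3 at 0.58 (adjusted p = 0.0169), HNRNPD at 0.51 (adjusted p = 0.00169), SRSF10 at -0.49 (adjusted p = 0.00485), RBM39 at -0.49 (adjusted p = 0.012) and HNRNPDL at 0.44 (adjusted p = 0.00546). RBM28 differed by -0.44 (adjusted p = 0.03), HNRNPU by 0.42 (adjusted p = 0.0454), HNRNPA1 by 0.38 (adjusted p = 0.038) and U2AF2 by -0.32 (adjusted p = 0.0467). Groups of 3 libraries were not tested for outlying samples.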

How the results depend on the processing

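No call of a member, or of another splicing gene named by rule, reversed under any alternative. Calls kept in every setting run were 21 of 39 in TCam-2, 32 of 43 in 2102 EP, 12 of 18 for the difference, and 39 of 51 and 47 of 55 between the lines with DMSO and with I-BRD9. The 6 differences lost in some setting were those of ESRP2, HNRNPA1, HNRNPA3, HNRNPU, RBM28 and U2AF2.

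The 2 members higher in 2102 EP became 6 with upper-quartile scaling, 4 with no count filter, 6 with a stricter filter, and 8 with total counts only, a choice made after seeing the data. Upper-quartile scaling gave 8 other splicing genes higher in TCam-2 in place of 5, and total counts only gave 9. Total counts only also left 21 lower members in TCam-2 in place of 36, 2 of 4 SF3 subunits and 6 of 14 RBM genes. The median log2 fold change in TCam-2 was then 0.08 over all genes and -0.16 over members. Fitting only the 6 TCam-2 libraries gave 5 higher members in place of 3, fitting only the 6 DMSO libraries gave 6 hnRNP genes higher in TCam-2 in place of 3, and no such fit was made for the difference. The cause of these shifts was not tested.

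Leaving out 1 library at a time gave 2 to 6 higher and 30 to 40 lower members in 2102 EP. The higher count was 6 without I-BRD9 replicate 2, 4 without DMSO replicate 1, 5 without DMSO replicate 3 and 4 without TCam-2 with I-BRD9 replicate 3. It gave 2 to 4 higher and 26 to 39 lower in TCam-2, with 1 to 4 SF3 subunits and 7 to 15 RBM genes lower there, and 7 to 11 differences above 0 and 5 to 7 below. With DMSO, 3 to 6 hnRNP genes were higher in TCam-2, and 4 to 9 other splicing genes were higher with I-BRD9 in 2102 EP.

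With the replicate number as a block, 33 members were lower in TCam-2, 38 were lower in 2102 EP, and 7 differences lay above 0 and 6 below; a block on the library codes gave 7 above 0. To look for pairing, deviations of log2 CPM from the group mean were correlated between I-BRD9 and DMSO libraries of a line. Same-numbered libraries gave 0.034 to 0.16 in TCam-2 and -0.119 to 0.096 in 2102 EP. Differently numbered libraries gave -0.181 to 0.048 in TCam-2 and -0.119 to 0.175 in 2102 EP. Not every same-numbered pair passed 0.1, and the numbers were not taken to pair the samples. The library codes of same-numbered libraries run close together, except for TCam-2 with DMSO replicates 1 and 2, and what the codes stand for is not given in the sources used here. Members below about 1 CPM rest on few counts. RBM24 and RBM46 were not called with I-BRD9 in 2102 EP, where both groups lay below 1 CPM. Wide gaps to a group at a higher level were still seen, as for RBM24 and RBM46 between the lines.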
